A study of Mus musculus with 2 samples.

Results

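STAT5 binding was examined at 9 receptor genes that signal with or beside the common gamma chain: Il7r, Il2ra, Il2rb, Il2rg, Il4ra, Il9r, Il15ra, Il21r and Crlf2. A peak was counted for a gene when its midpoint lay inside the gene or within 50 kb of either end. This rule was applied to 1 list of 5908 peaks, of which 5901 lay on assembled chromosomes, and it found 19 distinct peaks at 6 of the 9 genes. STAT5 chromatin immunoprecipitation and sequencing (ChIP-seq), which lists stretches of the genome bound by a protein, was run on 1 library, and 1 library of input chromatin was sequenced beside it. Both came from lymph nodes of a Stat5b-CAxBlnk+/- mouse on the C57BL/6 background with a B cell progenitor leukemia. That genotype combines the Stat5b-CA transgene with loss of 1 copy of Blnk, whose product links the pre-B cell receptor to its downstream enzymes. The cells of both libraries had received IL7 at 10 ng/mL during 30 minutes before fixation in 1% formaldehyde. The labels give neither the promoter that drives the transgene nor the age of the animal. Because IL7 was given to all cells and the transgene was in all cells, binding without either was not measured.

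The common gamma chain, encoded by Il2rg, is the shared subunit of the receptors for IL2, IL4, IL7, IL9, IL15 and IL21. Each receptor adds a chain of its own that recognises the cytokine. The kinases JAK1 and JAK3, which are attached to these chains, phosphorylate STAT proteins, and STAT5 is the main one after IL7, IL2 and IL15. Phosphorylated STAT5 forms dimers that enter the nucleus and bind a palindromic DNA site, spelled here as TTCNNNGAA. In B cell progenitors the IL7 receptor supports survival and proliferation. CRLF2 pairs with the IL7 receptor alpha chain to form the receptor for TSLP, a cytokine related to IL7.

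No replicate exists, so the counts carry no spread between animals or libraries, and no test between groups was possible. The deposited list gives positions only. Read depth, peak heights and the threshold for listing are unknown, so an empty window does not show that STAT5 was absent. A peak list holds no expression values, so the labelled cell type could not be checked against marker levels. STAT5 peaks lay at all 12 markers of B cell progenitors, 7 of 10 T cell markers and 4 of 10 myeloid markers, by the same 50 kb rule. Among all 21779 protein-coding genes, 33.0% had a peak by that rule.

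Of the 9 receptor genes, 6 (66.7%, exact 95% interval 29.9 to 92.5, counting error only) had a peak, beside the 33.0% of all protein-coding genes. That interval reaches from below the 33.0% to far above it. It is no test against that share, because the genes were chosen with earlier results of these data known. Il2ra had 8 peaks, Il7r had 5, Il2rb, Il4ra and Il21r had 3 each, and Il15ra had 1. Il2rg, Il9r and Crlf2 had none. The median was 3 peaks per receptor gene and 0 over all protein-coding genes, and 5.78% of all protein-coding genes had 3 peaks or more. The counts add up to 23 because 4 peaks were counted for a pair of neighbouring genes, Il2ra with Il15ra or Il4ra with Il21r. The 19 distinct peaks (exact Poisson 95% interval 11.4 to 29.7) therefore lay at 4 separate loci.

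**Figure D1:**
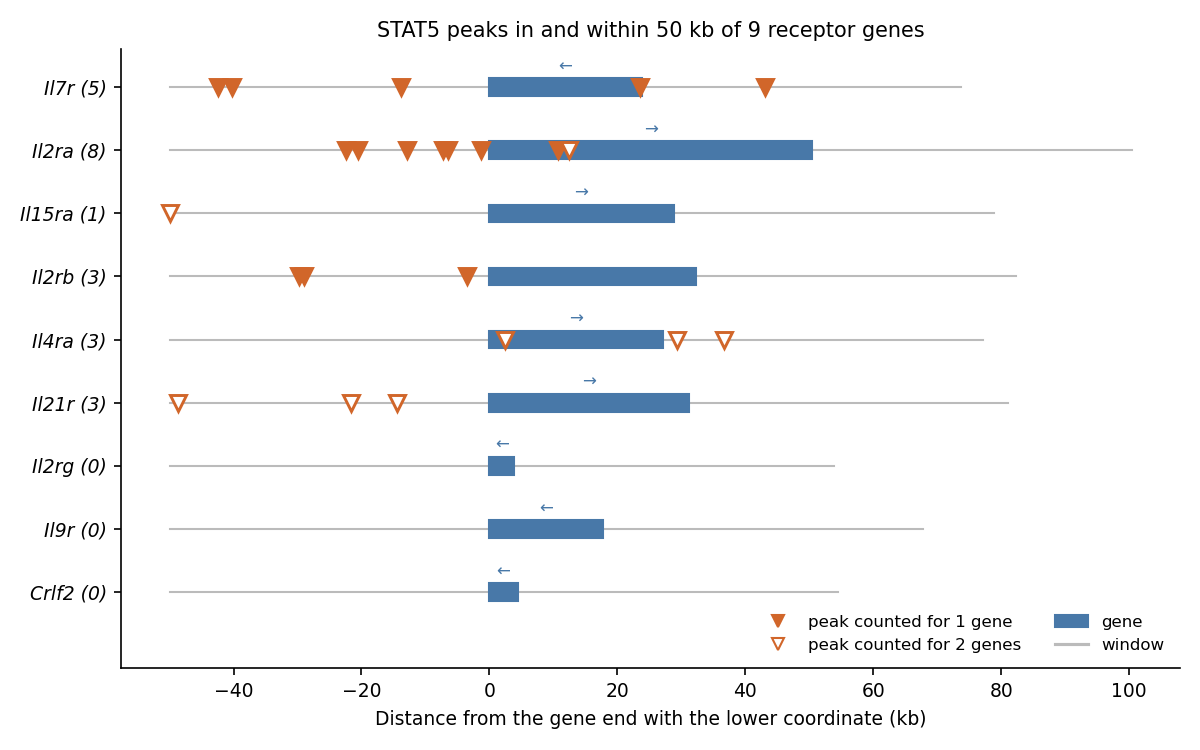
Positions of STAT5 peaks (triangles) in the window of each receptor gene, in kb from the gene end with the lower coordinate, with the count in parentheses. Arrows give the direction of transcription where the promoter table holds it, and open triangles are peaks counted for both genes of a neighbouring pair. Most peaks of Il2ra lie in front of the gene, while the windows of Il2rg, Il9r and Crlf2 are empty.

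Among the receptor gene promoters that could be read, that of Il7r alone had both a peak over part of it and a STAT-type sequence. RefSeq promoter windows of 300 bases (250 before the transcription start and 50 after it, build GRCm38.p6, the same positions as mm10) were found for 8 of the 9 genes, with 2 windows for Il15ra and no entry for Il2rb. Of these 8 genes, Il7r was the one with a window that a peak overlapped, which is 12.5%, beside 3.28% of the 17492 protein-coding genes with a window. Il7r was also the one of the 8 whose window held TTCNNNGAA. The Il7r stretch below runs from the far edge of its window to the edge of the annotated gene (chr15:9529942-9530126, minus strand). It has the TTCNNNGAA match in capitals. This stretch holds no base of the peak, because 5 bases lie between its end and the peak edge. The Il2ra stretch is the 250 bases before its start (chr2:11642542-11642791, plus strand), shown for contrast because Il2ra had the most peaks. It holds no TTCNNNGAA, and its capitals mark GGAA, the core of ETS factor sites, on either strand. Both are read 5′ to 3′ in the direction of the gene.
Il7r: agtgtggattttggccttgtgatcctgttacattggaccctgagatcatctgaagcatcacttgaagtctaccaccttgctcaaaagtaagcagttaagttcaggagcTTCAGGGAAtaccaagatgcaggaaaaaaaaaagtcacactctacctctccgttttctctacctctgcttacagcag
Il2ra: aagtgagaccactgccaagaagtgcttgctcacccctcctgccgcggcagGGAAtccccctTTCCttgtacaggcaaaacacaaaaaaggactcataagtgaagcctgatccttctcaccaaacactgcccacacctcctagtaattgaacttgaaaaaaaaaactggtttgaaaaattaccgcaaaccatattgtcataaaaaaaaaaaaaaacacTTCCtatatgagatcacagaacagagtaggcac

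The capitalised Il7r match lay 142 to 134 bases before the start and outside the peak. The peak there (chr15:9529543-9529936) was 394 bp wide. It reached 60 bases before the start, ran 334 bases into the gene from the start on, and held 110 of the 300 window bases. Between its upstream edge and the match lay 73 bases. The last 4 bases of the match are also a GGAA, at 137 to 134 bases before the start. Further GGAA matches lay at 121 to 118 bases before the start and, on the other strand, at 47 to 44 and 6 to 3 bases before it. Those on the other strand fall inside the peak and beyond the end of the printed stretch. TGTGGT, the letters bound by RUNX factors, stood at bases 4 to 9 after the start, also inside the peak. Such short matches are common. GGAA was in 95.7% and TGTGGT in 15.0% of all 21263 promoter windows of protein-coding genes. Of the 9 receptor windows, 7 held GGAA and 5 held TGTGGT.

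TTCNNNGAA, which reads the same on both strands, was present in 7.69% of the 21263 promoter windows of protein-coding genes. Of the 624 windows that a peak overlapped, 240 held it (38.5%, exact 95% interval 34.6 to 42.4), against 6.76% of the 20639 windows with no peak. Some genes have several windows that share sequence, so windows are not independent. In 230 of those 240 windows (95.8%, 92.5 to 98.0) a match lay whole inside the peak interval, and Il7r was among the other 10. The part of the Il7r peak beyond its window was not read, so whether that part holds TTCNNNGAA is unknown. The peaks covered a median of 195 window bases in windows that a peak overlapped, more than the 110 at Il7r. Among the other cytokine receptor genes of 2 lists described below, 4 had a window with a peak. They were 3 of the 19 class I genes with a window (15.8%) and 1 of the 8 class II genes (12.5%). Of all 17492 protein-coding genes with a window, 3.28% had a peak over it. Csf2rb2 and Il12rb2 had a match inside the peak. Ifnar2, like Il7r, had its match outside, 72 bases from the peak edge, and Il5ra had no match in its window. Any part of these peaks beyond the windows was not read. The matches are shown with 10 bases on each side, the match in capitals, because they show the same pattern with and without a peak over it. They lie at chr15:9530000-9530028 (Il7r, minus strand), chr16:91372559-91372587 (Ifnar2, plus strand), chr15:78305718-78305746 (Csf2rb2, minus strand) and chr6:67376293-67376321 (Il12rb2, minus strand).
Il7r, outside the peak: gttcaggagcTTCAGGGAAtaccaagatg
Ifnar2, outside the peak: tgccaaggccTTCCTGGAAgaagagagta
Csf2rb2, inside the peak: gtgtccacaaTTCTGAGAAgcaagcaaag
Il12rb2, inside the peak: gttcccttttTTCTCAGAAccgcactaag

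The STAT-type matches of Ifnar2, which encodes a chain of the interferon alpha and beta receptor, and of Il7r have different centres. The Ifnar2 letters also satisfy the stricter spelling TTCCNGGAA, which 1.17% of all windows held. None of the 9 receptor windows held TTCCNGGAA. The same palindrome with 1 more base in its gap, the spacing preferred by STAT6, which acts after IL4, was present in 6.35% of all windows and in none of the 9. A missing match says only that these letters are not in the 300 bases read.

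Il7r encodes the IL7 receptor alpha chain, the chain that makes a B cell progenitor responsive to IL7. Its gene lies at chr15:9506159-9529941 and is 23.8 kb long. Distances here and below are taken from peak midpoints. Besides the promoter peak, 1 peak (chr15:9549130-9549425, 296 bp) lay 19.4 kb upstream of the start, between Il7r and Spef2. The other 3 lay beyond the far end of the gene. The nearest of them (chr15:9492228-9492445, 218 bp) was 13.8 kb past that end, in sequence with no annotated gene. The remaining pair (chr15:9463489-9464033, 545 bp, and chr15:9465753-9465961, 209 bp) lay 42.4 and 40.3 kb past the end and inside Capsl, the neighbouring gene. The 545 bp peak was the widest at Il7r, wider than 92.0% of all peaks, and stood at place 298 in the deposited order. The 5 peaks spread over 85937 bp, and beyond them the next listed peak was 219 kb from the gene. As many or more peaks were found for 1.28% of all protein-coding genes (279 genes). With a peak given only to the protein-coding gene nearest to its midpoint, Il7r kept 3.

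Il2ra encodes the IL2 receptor alpha chain, which raises the affinity of the receptor for IL2 and is a textbook STAT5 target. The gene (chr2:11642792-11693194) is 50.4 kb long, and its 8 peaks gave 5.32 per 100 kb of window, the highest of the 9 genes. All 8 lay within 35139 bp, 6 of them before the start and 2 inside the gene. The upstream peaks were 22.4, 20.5, 12.9, 7.18, 6.48 and 1.32 kb from the start. Those inside were 10.8 and 12.5 kb downstream of it. No peak overlapped the promoter window itself, whose edge was 963 bp from the nearest peak.

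Of the 8 Il2ra peaks, 6 lay in 3 close pairs, and the other 2, at 12.9 and 1.32 kb upstream, were 5.70 and 5.16 kb from the next peak. The pair at 7.18 and 6.48 kb upstream (chr2:11635474-11635757 and chr2:11636076-11636542) was 0.694 kb apart from midpoint to midpoint. The inner pair (chr2:11653464-11653705 and chr2:11655061-11655433) was 1.66 kb apart, and the farthest upstream pair 1.88 kb apart. In each pair the members differed in width: 284 and 467 bp, 242 and 373 bp, and 249 and 212 bp. The 373 bp peak inside the gene stood at place 212 in the deposited order, the earliest of all 19 receptor peaks. What that order was sorted on is unknown, so a place is not a measure of binding. With intervals less than 5 kb apart joined, the 8 peaks became 4 sites.

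The 2 farthest upstream Il2ra peaks had Rbm17, a splicing factor gene, as their nearest protein-coding gene, at 17.2 and 19.1 kb, and a rule of nearest genes therefore left Il2ra with 6. Only 0.188% of all protein-coding genes (41 genes) had 8 peaks or more. The genes most like Il2ra, by an equal count and then by the nearest window length, were Rnf145, Katnal1, Kbtbd11, Adamtsl4, Gimap6, Arhgef10, Gimap7, Ly6e, Fli1 and Prkch, each with 8 peaks. This likeness rests on 1 count in 1 library.

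**Figure D2:**
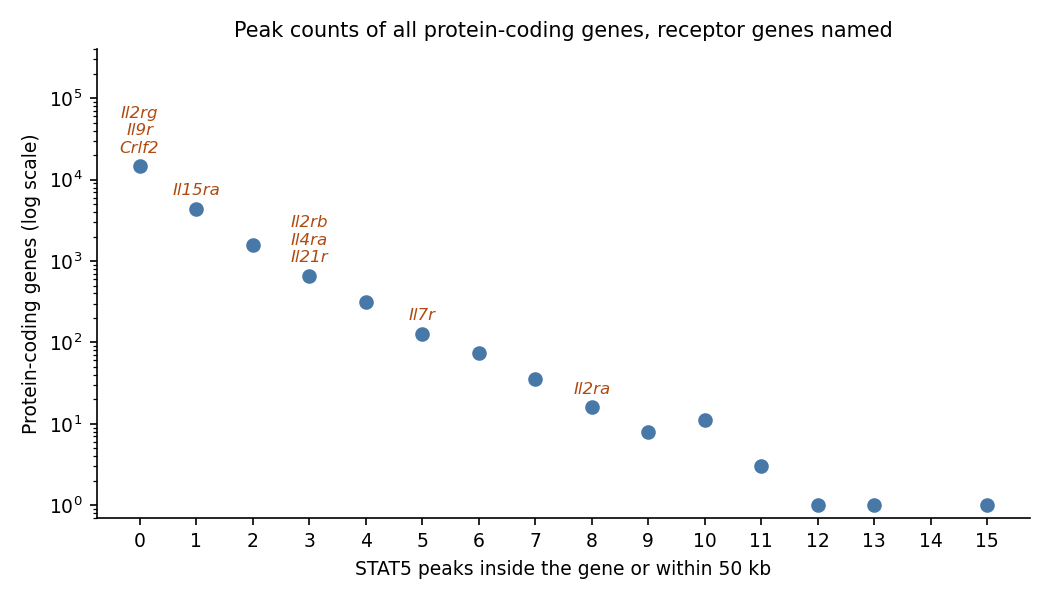
Number of protein-coding genes (log scale) at each count of STAT5 peaks inside the gene or within 50 kb, with the receptor genes written above their own count. Il2ra, with 8 peaks, stands among the 41 genes with as many or more, and 14586 genes share the count of 0 with Il2rg, Il9r and Crlf2.

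Il15ra encodes the IL15 receptor alpha chain, which presents IL15 to the beta and gamma chains. It lies 12.0 kb beyond Il2ra on chromosome 2 (chr2:11705172-11733985). Its 1 peak was the 373 bp peak inside Il2ra, at 49.9 kb from Il15ra, just within the 50 kb limit. The peak beside it, the 242 bp peak also inside Il2ra, was 51.6 kb away and thus just outside. No peak lay inside Il15ra or between it and Il2ra, and none had Il15ra as its nearest gene. The next just outside the limit for any receptor gene was a peak in Rac2, 52.5 kb from Il2rb.

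Il2rb encodes the beta chain that IL2 and IL15 share, which carries docking sites for STAT5. Its gene lies at chr15:78479256-78511621, and none of its 3 peaks lay inside it. One (chr15:78475505-78475856, 352 bp) was 3.58 kb from the gene end with the lower coordinate. The other 2 (chr15:78449215-78449835, 621 bp, and chr15:78450062-78450453, 392 bp) were 29.7 and 29.0 kb from that end and inside Tmprss6, a protease gene that controls iron metabolism. They were 0.733 kb apart, and the 621 bp peak was the widest of all 19. By the nearest gene, Il2rb kept 1 peak.

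Il4ra encodes the chain shared by the receptors for IL4 and IL13, and Il21r the chain specific to IL21. They are neighbours on chromosome 7, 23.8 kb apart, with the same direction of transcription, and they shared the same 3 peaks. A 199 bp peak (chr7:125554533-125554731) lay inside Il4ra, 2.36 kb downstream of its start. It was the narrowest of the 19, wider than 3.58% of all peaks. The others lay between the genes: a 234 bp peak (chr7:125581468-125581701) 2.11 kb past the end of Il4ra and a 398 bp peak (chr7:125588681-125589078) 9.41 kb past it. The latter was 14.5 kb upstream of the Il21r start, the closest of the 3. All 3 had Il4ra as their nearest gene, so Il21r had none by the nearest gene and none inside it.

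Il2rg, the gene of the common chain itself, had no listed peak. The nearest was 2.71 Mb away on chromosome X, at Rlim. Few X genes had a peak by the 50 kb rule: 75 of 963 (7.79%), beside 33.0% of all protein-coding genes, and the X chromosome held 44 peaks in all. The empty window of Il2rg cannot be told apart from this low count on X. Crlf2, on chromosome 5, had its nearest peak 1.05 Mb away, inside Pcgf3. Il9r, the gene of the IL9 receptor alpha chain on chromosome 11, had its nearest peak 68.5 kb away (chr11:32118736-32119378, 643 bp), and the gene nearest to that peak was Nsg2, at 59.8 kb. Il2rg and Crlf2 are short genes of 3.87 and 4.42 kb, so their windows of 104 kb were the smallest of the 9. Windows of the other 7 ran from 118 to 150 kb.

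Counted inside the gene alone, 3 of the 9 receptor genes had a peak (Il2ra with 2, Il7r and Il4ra with 1 each), beside 9.85% of all protein-coding genes. As the nearest gene to a peak, 4 did (Il2ra 6, Il7r 3, Il4ra 3 and Il2rb 1), beside 16.3%. Of the 19 peaks, 13 had a receptor gene as their nearest protein-coding gene and 6 had another: Capsl, Rbm17 and Tmprss6 with 2 each. With a flank of 20 kb, Il15ra dropped out and the 5 genes left held 13 peaks. With 100 kb, Il9r was added, Il15ra went from 1 to 8 by taking in all peaks of Il2ra, and Il2rb reached 7 with 4 peaks at Rac2.

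**Figure D3:**
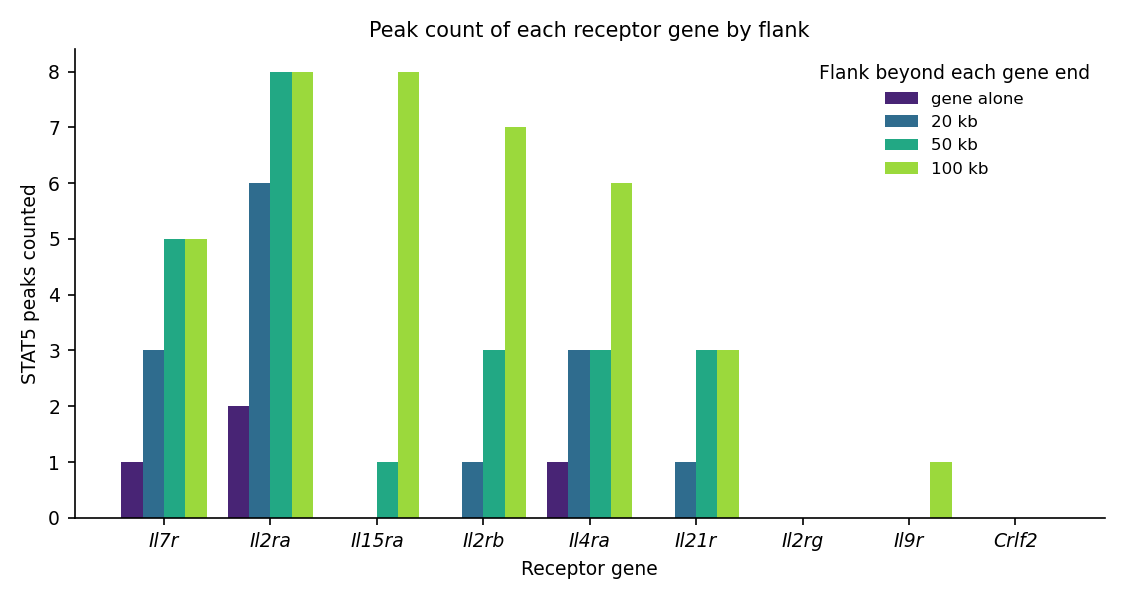
STAT5 peaks counted for each receptor gene (bars) in the gene alone and with flanks of 20, 50 and 100 kb. Counts of Il7r and Il2ra are the same at 50 and 100 kb (5 and 8), while that of Il15ra goes from 0 at 20 kb to 8 at 100 kb.

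The receptor peaks were of ordinary width. Their median was 296 bp, with a range from 199 to 621 bp, and the median of all 5901 peaks was 295 bp. Of the 19, 10 were wider than that median, and 11 (57.9%) stood in the first 2954 places of the deposited order. In the wider intervals alone, Il2rb kept all 3 of its peaks, Il7r kept 3 of 5, Il2ra 3 of 8 and Il4ra 1 of 3. Of the 16 peaks at genes with a known start, 1 lay within 1 kb of the nearest receptor gene start, 3 within 5 kb and 10 within 20 kb. Of the 16, 9 lay upstream of that start, and 6 of these 9 were peaks of Il2ra. The peaks between Il4ra and Il21r were closer to the Il21r start and so count as upstream, although Il4ra was their nearest gene.

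The genes that work with these receptors were counted by role, with no test between roles. None of 8 ligand genes (Il2, Il4, Il7, Il9, Il15, Il21, Tslp and Il13) had a peak, which allows a share of up to 36.9% by the exact interval. That range takes in the 33.0% of all protein-coding genes. Of 20 genes for kinases, STATs and other signalling proteins of these receptors, 12 had one (60.0%, 36.1 to 80.9, beside 33.0% of all protein-coding genes). Pik3cd, a catalytic subunit of PI3 kinase, led with 5 peaks, and Ptpn2, a phosphatase that acts on JAK1 and JAK3, had 3. Jak1, which binds the cytokine-specific chains, had 1 peak, and Jak3, which binds the common gamma chain, had none. Stat6, the mediator of IL4, had 1, and Stat3 had 2, of which 1 overlapped its promoter window. Of the 8 feedback inhibitors of the SOCS family, 7 had a peak (87.5%, 47.3 to 99.7, beside the same 33.0%), and Socs6 had none. Cish had 10 peaks and Socs3 had 9, both more than the 8 of Il2ra. By the nearest gene, Cish kept 6, the same as Il2ra, and Socs3 kept 7. Socs1 had 7, Socs2 had 5, and Socs4, Socs5 and Socs7 had 1 each. Of the 4 SOCS family genes with a promoter window, 3 had a peak over it, beside 3.28% of the 17492 protein-coding genes with a window.

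Other cytokine receptors gave a range of counts. Other class I receptor genes, the structural class of the gamma chain family, numbered 24. Of these, 13 had a peak (54.2%, 32.8 to 74.4, beside 33.0% of all protein-coding genes). Lifr, a leukemia inhibitory factor receptor chain, had 6, and Il6ra and Il23r, receptor chains for IL6 and IL23, had 4 each. By the nearest gene, Lifr kept 5, Il6ra 3 and Il23r 0. Csf2rb and Csf2rb2, beta chains for IL3 and related cytokines, had 2 and 3. None of the 24 reached the 8 peaks of Il2ra, and Lifr alone exceeded the 5 of Il7r. Of 11 class II receptor genes, 10 had a peak (90.9%, 58.7 to 99.8), beside the same 33.0%. Among them were Ifnar1, Il10rb, Ifnar2 and Ifngr2 with 11, 10, 9 and 4. Those counts are for these last 4 genes in that order. These 4 are neighbours on chromosome 16 whose windows overlap, and the 11 genes rest on 20 distinct peaks. Neither the members nor these lists were compared by a test, and the intervals treat genes as independent although neighbours share peaks.

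**Figure D4:**
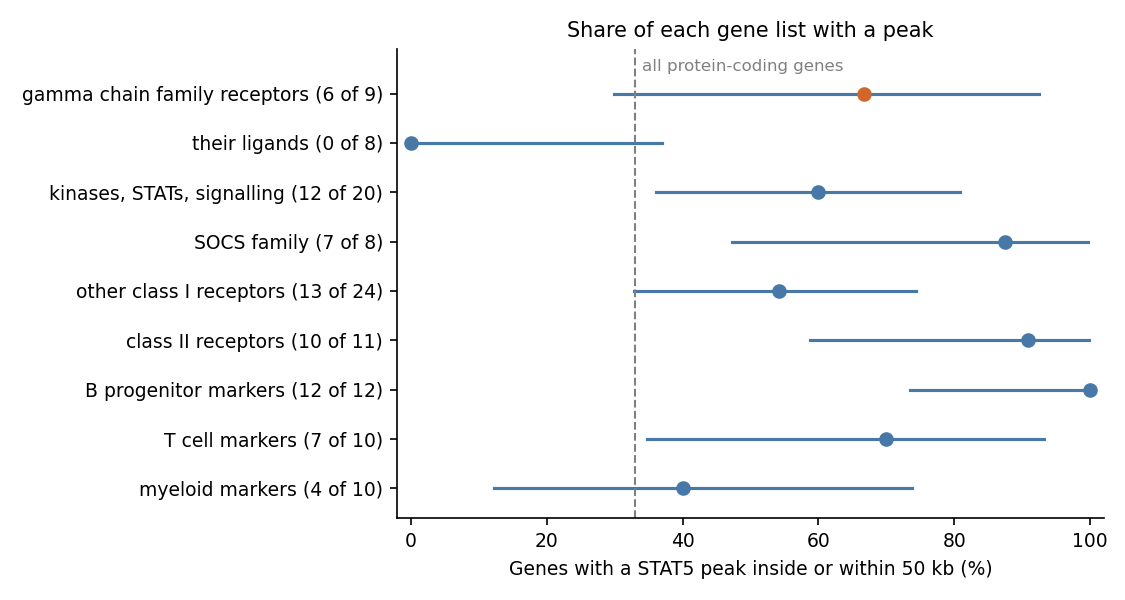
Share of each gene list with a STAT5 peak inside the gene or within 50 kb (points, in percent, with exact 95% intervals as lines) beside the 33.0% of all protein-coding genes (dashed line). The gamma chain family receptors stand at 66.7% with an interval from 29.9 to 92.5, and their ligands at 0 of 8. The intervals give counting error only and are no test against the dashed line.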

How the data were processed

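The deposited file held the chromosome, start and end of each peak and a name, with no header and no score. Its positions are on mm10, per the submitters' processing notes, which also name BWA 0.7.4, Picard and MACS2 without their roles. Neither the labels nor the file state alignment settings, read filters, the peak threshold or how the input was used. Gene positions came from NCBI RefSeq (GRCm38.p6, 21779 protein-coding genes). On chromosomes other than Y, 340 genes with a start under 3000000 bp carry positions on other sequences and were left out. All 9 receptor genes and all genes of the lists matched by symbol. Promoter sequences and transcription starts came from the RefSeq promoter table. No genome sequence was used, so peak sequences were not read, and the planned motif share of the peaks was taken in promoter windows instead. Positions are counted from 1.

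Counts were made with Python 3.11.15 and pandas 2.3.3, and the counting code was tested on simulated peaks. Shares carry exact Clopper-Pearson 95% intervals and the peak total an exact Poisson one (scipy 1.17.1), for counting error only. Named genes were the 9 receptor genes, the genes nearest to their peaks, genes of the lists with a peak, and up to 10 genes with the count of the leading gene. List genes without a peak (the ligands, Jak3 and Socs6), the neighbours Spef2, Rlim, Pcgf3, Nsg2, Rac2 and Nsmce1, and the ordering of those 10 by window length were chosen after the values were seen. The members and lists were chosen with earlier results of these data known. Alternatives changed the flank, the overlap rule, the peaks used, the joining of peaks and the motif.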

Additional observations from a re-analysis of the deposited data

How the results depend on the processing

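Without replicates, the limits are the unknown depth and threshold, and leaving out a library was not possible. No paired analysis was possible because there is 1 ChIP library. Among the alternatives, 6 receptor genes had a peak under any overlap of 1 bp, in the peaks wider than the median and in the first 2954 places of the order. The count was 5 with a 20 kb flank or with joined peaks, 7 at 100 kb, 4 by the nearest gene and 3 in the gene alone. The 19 distinct peaks became 10 in the wider peaks, 11 in the first 2954 places and 4 in the gene alone. With the other alternatives they ranged from 13 to 27. The median per receptor gene, 3 peaks, became 1 with a 20 kb flank, in the wider peaks and in the first 2954 places, 5 at 100 kb, and 0 in the gene alone and by the nearest gene. The share of all protein-coding genes with a peak, 33.0%, was 21.6% at 20 kb, 45.8% at 100 kb, 9.85% in the gene alone, 19.5% in the wider peaks, 19.7% in the first 2954 places and 36.3% without genes that have model names. These changes follow from counting fewer or more peaks or genes. The share of receptor promoter windows with a STAT motif, 11.1%, was 0.0% for TTCCNGGAA and 0.0% with a gap of 1 more base. The search of 200 bp around each midpoint was not run. For the count per gene, any overlap and joining were chosen after seeing the data.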

Other observations

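Between 50 and 100 kb from Il15ra lay the other 7 peaks of Il2ra, the nearest of them inside that gene. Within 50 to 100 kb of Il2rb, 4 peaks had Rac2 as their nearest gene, which encodes a GTPase of blood cells. One of them (chr15:78572470-78573161, 692 bp) was wider than every peak counted for the 9 receptor genes. Within 50 to 100 kb of Il4ra, 3 peaks had Nsmce1, a gene of DNA repair, as their nearest gene, and the widest of these was 689 bp (chr7:125495235-125495923). The Il9r peak at 68.5 kb was 643 bp wide and stood at place 360 of the deposited order. No peak lay between 50 and 100 kb from Il7r, Il2ra, Il21r, Il2rg or Crlf2.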
